A study of Danio rerio with 40 samples.

Results

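Of the 40 brain libraries of a zebrafish study, 20 carry fish numbers above 40. They are described here as 2 bands of 10, fish 63 to 95 and fish 41 to 57, with fish number also taken as a continuous measure across all 20. The bands were set by the number that titles each library. The sources used here do not say what that number stands for, and the labels give no hour of sampling. All 20 animals were siblings aged 6 months that carried the naglu frameshift allele A603fs on 1 or both copies, so no band holds a fish without it. Naglu encodes the lysosomal enzyme alpha-N-acetylglucosaminidase, which breaks down heparan sulfate, and homozygous fish are a model of mucopolysaccharidosis type IIIB. Each fish was injected in the abdomen with 10 µg of ferric citrate in 0.85% saline or with the saline alone, was kept apart from other fish for 7 days, and gave a library of polyA RNA from its whole brain.

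Fish 63 to 95 comprised 3 homozygous iron, 2 homozygous saline, 2 heterozygous iron and 3 heterozygous saline fish, and fish 41 to 57 had the same numbers. Females made up 3 of the 10 fish 63 to 95 and 6 of the 10 fish 41 to 57. Home tank nearly followed the band. It rose from 1 to 5 over fish 41 to 79, and fish 82, 89 and 95 came from tanks 1, 3 and 5. Tanks 3, 4 and 5 each held 3 of the fish 63 to 95 and tank 1 held the remaining fish, number 82, whereas fish 41 to 57 came from tanks 1 (4 fish), 2 (5 fish) and 3 (1 fish). Genotype, treatment and sex were terms of the models below, except in the alternatives that drop one of them.

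The circadian clock is a loop of transcription factors in which Bmal and Clock proteins switch on period (per) and cryptochrome (cry) genes, whose products then repress Bmal and Clock. A second loop joins the Rev-erb receptors (nr1d genes), which repress bmal genes, and the ROR receptors, which activate them. The PAR bZIP activators Dbp, Tef and Hlf and the repressor Nfil3 pass the rhythm on to output genes through a shared DNA element, the D-box. Most zebrafish tissues hold clocks of their own that respond to light, and many clock genes exist as fish-specific duplicates. Where the annotation gives 1 symbol to several genes, the Ensembl identifier is printed with it.

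Library totals ran from 13101544 to 38516546 counts in fish 63 to 95, with fish 77 the shallowest, and from 18300223 to 33121653 in fish 41 to 57. Mitochondrial genes took 10.4 to 14.2% of counts in fish 63 to 95 and 11.7 to 14.8% in fish 41 to 57. Brain markers were present in both bands. Gene levels are given as log2 CPM, which are counts scaled to a library total adjusted by TMM factors. The level of snap25 (ENSDARG00000020609), a presynaptic protein of neurons, was 11.85 to 12.33 in fish 63 to 95 and 11.72 to 12.16 in fish 41 to 57. That of mbpa, a myelin protein, was 12.80 to 14.36 and 12.69 to 14.17 in the same order of bands. The lowest values of the glial markers gfap and csf1ra lay in fish 63 to 95. Gfap ran from 5.55 to 7.82 log2 CPM (median 7.46) in that band and from 6.99 to 7.83 (median 7.43) in fish 41 to 57. Csf1ra ran from -0.02 to 4.00 (median 2.96) in fish 63 to 95 and from 2.67 to 3.58 (median 3.17) in fish 41 to 57. Naglu itself ran from 1.41 to 1.87 log2 CPM in fish 63 to 95 and from 1.49 to 1.93 in fish 41 to 57, with a difference of -0.037 (SE 0.087, edgeR adjusted p = 0.999). These naglu counts are no check of genotype, because mutant and normal transcripts are counted together. On a score built from the 50 genes that best separated the genotypes in the other 19 fish, with 0 for heterozygous and 1 for homozygous, the 10 homozygous fish lay between 0.79 and 1.11 and 9 heterozygous fish between -0.43 and 0.49. The remaining library labelled heterozygous, fish 41, scored 1.08. Fish 89 stood apart in its cell type markers, as given below, and results are also given without fish 41 and 89.

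No gene passed the threshold between fish 63 to 95 and fish 41 to 57. Of 19093 genes tested by edgeR's quasi-likelihood test with Benjamini-Hochberg adjustment, 0 were called at an adjusted p under 0.05 (0%), while 950 had an unadjusted p under 0.05. DESeq2 called 17 genes, 14 of them lower, and limma voom called 0. In no gene did the 2 bands fail to overlap in log2 CPM (0 of 19093, 0%). The 5 genes with the smallest p by edgeR did not pass and are described next.

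The clock repressor bhlhe41 (also called Dec2) ran from 6.56 to 7.04 log2 CPM (median 6.78) in fish 63 to 95, against 7.00 to 7.61 (median 7.20) in fish 41 to 57. Its difference was -0.49 (SE 0.086, adjusted p = 0.281). The bands touched by a single pair of values, and 9 of the 10 fish 63 to 95 lay below every fish 41 to 57. For dbpa, a D-box activator, the difference was -0.49 (SE 0.089, adjusted p = 0.281), with levels of 5.29 to 5.90 in fish 63 to 95 and 5.77 to 6.39 in fish 41 to 57. In ciarta, which encodes a repressor of Bmal and Clock, the difference was -0.95 (SE 0.185, adjusted p = 0.406). Hsf2, a heat shock transcription factor, gave -0.62 (SE 0.124, adjusted p = 0.406), and abcc6b.1, a transporter gene counted at low levels, gave -0.50 (SE 0.105, adjusted p = 0.411). DESeq2 called bhlhe41 (adjusted p = 0.000996), dbpa (adjusted p = 0.001), ciarta (adjusted p = 0.001) and hsf2 (adjusted p = 0.00316) among its 17.

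The 46 members of 4 clock lists that were tested had a median absolute difference between the bands of 0.243 on the log2 scale, against 0.058 over all 19093 genes. Of these 46, 0 were called by edgeR, 30 had an unadjusted p under 0.05, and DESeq2 called 6. Differences of 0.7 or more in size that did not pass were found in both directions. Rorcb differed by 1.01 (SE 0.253), nfil3-5 by 0.98 (SE 0.231), nr1d4b by 0.80 (SE 0.233) and bmal2 by 0.71 (SE 0.174), and on the other side per3 differed by -0.79 (SE 0.197) and nr1d1 by -0.77 (SE 0.239), with adjusted p between 0.411 and 0.648.

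**Figure D1:**
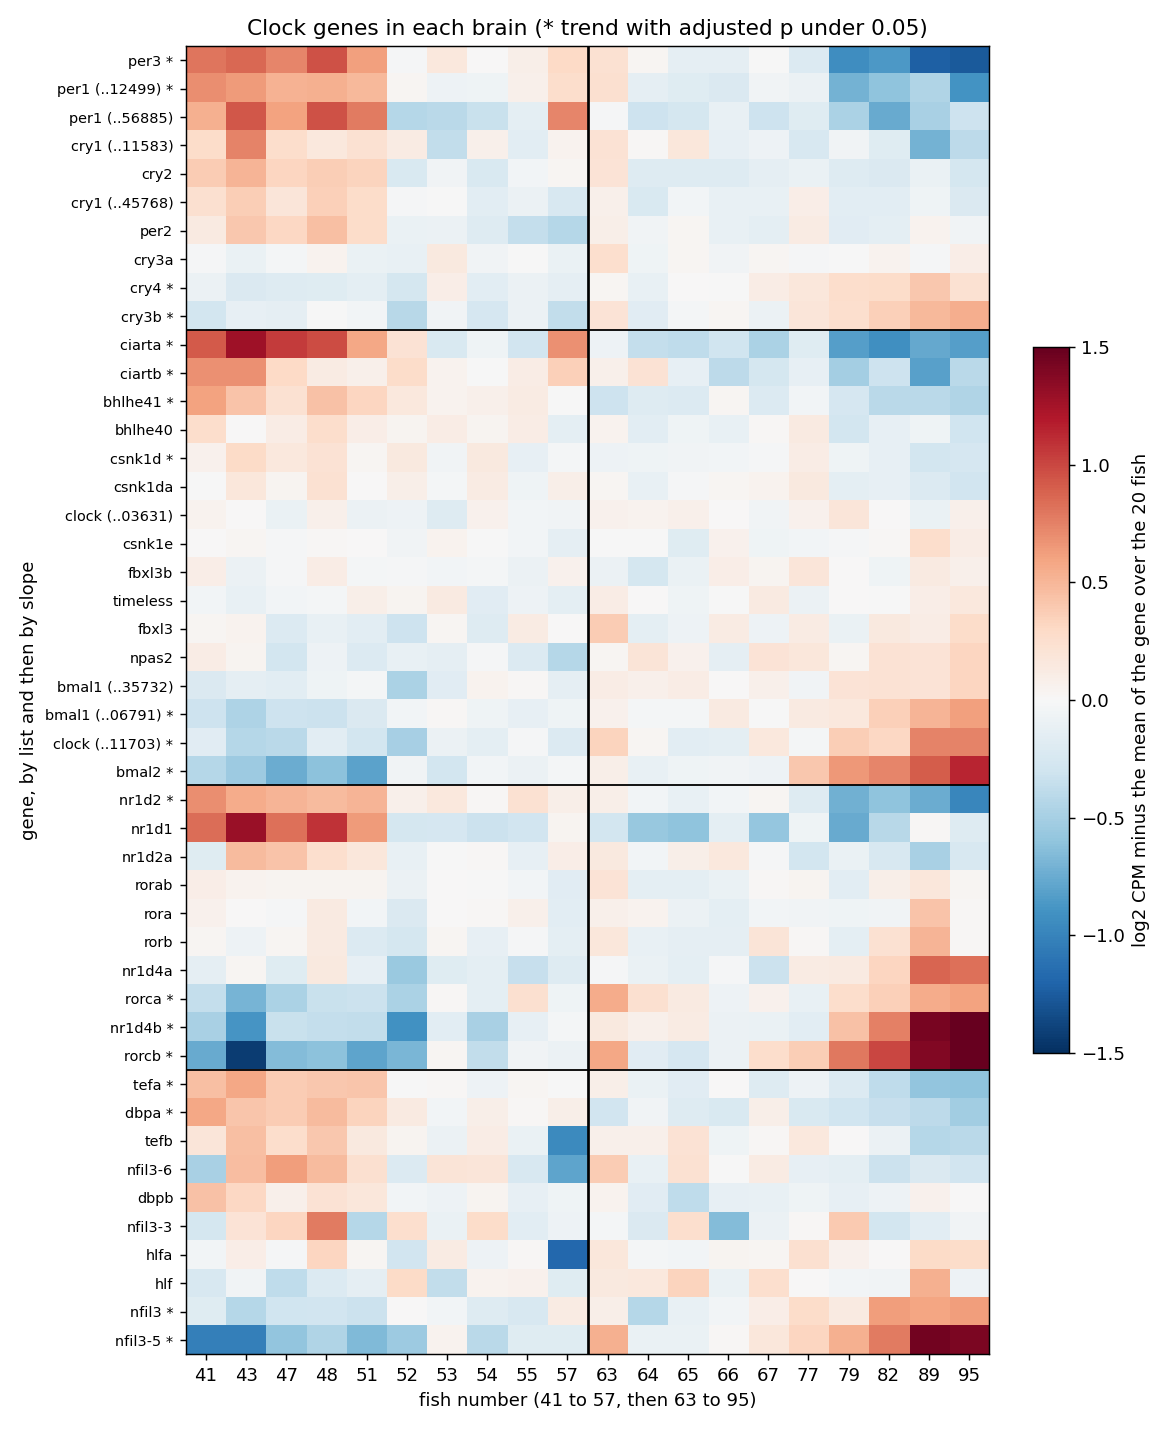
Level of each of the 46 clock genes (rows, in 4 lists divided by horizontal lines) in each of the 20 brains (columns, in order of fish number, with a vertical line between fish 41 to 57 and fish 63 to 95), as log2 CPM minus the mean of the gene, with colours limited at 1.5. Stars mark the 19 genes whose trend passed. With a term for the band in the fit, 9 of them also had a called slope of fish number. For the other starred rows, a change at the line alone was not told apart from a change across the fish.

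Fish number taken as a continuous measure gave a different count. Across the same 20 fish and 19093 genes, edgeR called a trend of fish number in 61 genes (0.319%), with 23 rising as the number rose (0.12%) and 38 falling (0.199%), and 1289 genes had an unadjusted p under 0.05. Of the 46 clock list members 19 were called (41.3%), 10 rising and 9 falling. The lists had been drawn up with earlier results of these data known, so their share is a description. Slopes are given per 10 fish numbers on the log2 scale, and the fitted fold runs from fish 41 to fish 95. DESeq2 called 132 genes, 22 of them in the clock lists, and voom 63 with 21. With a home tank term edgeR called 14 genes, 10 in the clock lists. It called 32 genes without fish 41 and 38 without fish 95. Without fish 41 and 89 it called 22 genes and 14 clock genes, and without fish 82, 89 and 95, the 3 highest numbers, it called 30 and 11.

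Among the period and cryptochrome genes, per3 and 1 of the 2 per1 genes fell with fish number, and cry3b and cry4 rose. These were 4 calls among 10 per and cry genes tested, and the median slope was -0.091 against 0 over all genes. Per3 ran from 5.08 to 6.57 log2 CPM (median 6.17) in fish 63 to 95, against 6.32 to 7.29 (median 6.80) in fish 41 to 57. Fish 41, 43, 47 and 48 held its 4 highest values and fish 79, 82, 89 and 95 its 4 lowest. Its slope was -0.38 (SE 0.035, edgeR adjusted p = 1.15e-05), a fitted 4.21-fold fall. Per1 (ENSDARG00000012499) ran from 5.52 to 6.65 in fish 63 to 95 and from 6.34 to 7.11 in fish 41 to 57, with the same 4 fish at the top and the same 4 at the bottom. It fell with a slope of -0.24 (SE 0.029, adjusted p = 0.000153), which did not pass with a home tank term (-0.26, adjusted p = 0.104).

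Cry3b ran from 6.21 to 6.93 log2 CPM (median 6.57) in fish 63 to 95, against 5.96 to 6.37 (median 6.25) in fish 41 to 57, and 7 of the fish 63 to 95 lay above every fish 41 to 57. Its slope was 0.14 (SE 0.024, adjusted p = 0.00865). Cry4 rose with a slope of 0.11 (SE 0.015, adjusted p = 0.00155). Neither passed with a home tank term (adjusted p = 0.209 for cry3b and 0.291 for cry4) or without fish 82, 89 and 95 (0.382 and 0.0984). The other 6 members did not pass. They were per2, whose slope was -0.043 (adjusted p = 0.921), the second per1 gene (ENSDARG00000056885, -0.23, adjusted p = 0.282), cry1 (ENSDARG00000011583, -0.13, adjusted p = 0.14), cry1 (ENSDARG00000045768, -0.075, adjusted p = 0.454), cry2 (-0.11, adjusted p = 0.259) and cry3a (0.021, adjusted p = 0.9).

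Among 16 genes for the activators Bmal and Clock, their feedback repressors and other clock factors, 3 activators rose. The 4 that fell were bhlhe41, ciarta, ciartb and csnk1d. Bmal1 (ENSDARG00000006791) ran from 5.27 to 5.91 log2 CPM (median 5.43) in fish 63 to 95, against 4.83 to 5.31 (median 5.12) in fish 41 to 57. Its slope was 0.17 (SE 0.016, adjusted p = 1.33e-05), a fitted 1.87-fold rise. Bmal2 ran from 2.09 to 3.34 (median 2.45) in fish 63 to 95, against 1.40 to 2.17 (median 1.85) in fish 41 to 57, and rose with a slope of 0.33 (SE 0.032, adjusted p = 1.46e-05). In both genes fish 79, 82, 89 and 95 held the 4 highest values. One clock gene (ENSDARG00000011703) rose with a slope of 0.19 (SE 0.026, adjusted p = 0.000839), while the other (ENSDARG00000003631) had a slope of 0.014 (adjusted p = 0.935) and did not pass. The rise of the first did not pass with a home tank term (adjusted p = 0.28) or without fish 82, 89 and 95 (0.274).

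Bhlhe41, described above, fell with a slope of -0.20 (SE 0.022, adjusted p = 6.31e-05). Ciarta ran from 2.63 to 3.48 log2 CPM (median 3.13) in fish 63 to 95, against 3.27 to 4.82 (median 4.19) in fish 41 to 57, and fell with a slope of -0.35 (SE 0.056, adjusted p = 0.00624), a fitted 3.69-fold fall. Its paralogue ciartb fell with -0.21 (SE 0.037, adjusted p = 0.0104), and csnk1d, a kinase that phosphorylates Per proteins, with -0.064 (SE 0.013, adjusted p = 0.0434). The slopes of ciarta, ciartb and csnk1d did not pass with a home tank term (adjusted p = 0.202, 0.23 and 0.582) or without fish 41 and 89 (0.0781, 0.361 and 0.428). The other 9 members did not pass, with slopes between -0.069 (bhlhe40) and 0.087 (bmal1, ENSDARG00000035732).

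**Figure D2:**
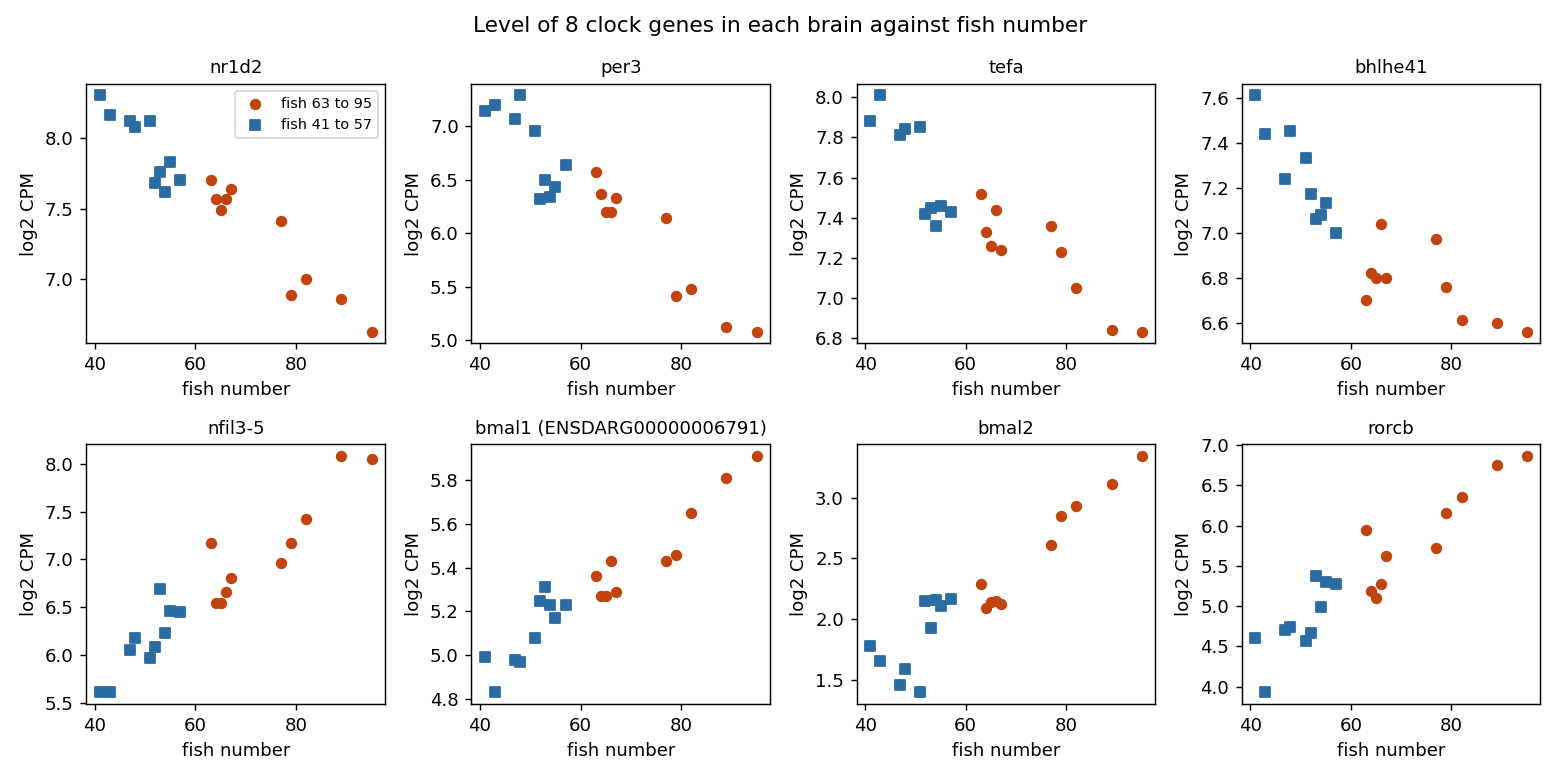
Level in log2 CPM (vertical axes) of 8 clock genes in single brains against fish number (horizontal axes), with fish 63 to 95 as circles and fish 41 to 57 as squares. In the top row nr1d2, per3, tefa and bhlhe41 descend and in the bottom row nfil3-5, bmal1, bmal2 and rorcb ascend, with fish 82, 89 and 95 among the 4 values at that end of each range.

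In the second loop, nr1d2, a Rev-erb repressor of bmal genes, had the smallest p of all genes. It ran from 6.63 to 7.70 log2 CPM (median 7.45) in fish 63 to 95, against 7.62 to 8.30 (median 7.95) in fish 41 to 57, and 8 of the fish 63 to 95 lay below every fish 41 to 57. Its slope was -0.29 (SE 0.022, adjusted p = 9.92e-07), a fitted 2.94-fold fall. Nr1d4b, another Rev-erb gene of fish, moved the other way. It ran from 2.04 to 3.71 (median 2.34) in fish 63 to 95, against 1.29 to 2.17 (median 1.84) in fish 41 to 57, and its slope was 0.38 (SE 0.041, adjusted p = 4.55e-05), which did not pass without fish 82, 89 and 95 (0.24, adjusted p = 0.0835).

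Rorcb, which encodes an ROR activator, ran from 5.10 to 6.86 log2 CPM (median 5.83) in fish 63 to 95, against 3.93 to 5.38 (median 4.72) in fish 41 to 57. It rose with a slope of 0.46 (SE 0.044, adjusted p = 1.71e-05), a fitted 5.58-fold rise. Rorca rose with 0.19 (SE 0.033, adjusted p = 0.00865), which did not pass with a home tank term (adjusted p = 0.395) or without fish 82, 89 and 95 (0.274). The other 6 of these 10 receptors did not pass. Nr1d1, the best known Rev-erb gene, had a slope of -0.24 (SE 0.081, adjusted p = 0.491), and its 5 highest values, 4.76 to 5.42 log2 CPM, were those of fish 41, 43, 47, 48 and 51.

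Of 10 PAR bZIP and Nfil3 genes, the activators dbpa and tefa fell and the repressors nfil3 and nfil3-5 rose. Tefa ran from 6.83 to 7.52 log2 CPM (median 7.25) in fish 63 to 95, against 7.36 to 8.01 (median 7.63) in fish 41 to 57, and its slope was -0.20 (SE 0.023, adjusted p = 9.39e-05). The slope of dbpa was -0.19 (SE 0.023, adjusted p = 0.000143), and it did not pass with a home tank term (-0.18, adjusted p = 0.133). Nfil3-5 ran from 6.54 to 8.08 (median 7.07) in fish 63 to 95, against 5.61 to 6.69 (median 6.13) in fish 41 to 57. It rose with a slope of 0.44 (SE 0.036, adjusted p = 3.36e-06), a fitted 5.17-fold rise. Nfil3 rose with 0.20 (SE 0.026, adjusted p = 0.000471), which did not pass without fish 82, 89 and 95 (0.15, adjusted p = 0.224). Hlfa, hlf, dbpb, tefb, nfil3-3 and nfil3-6 did not pass.

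The 19 clock genes that passed were chosen for their slopes, so extremes at the lowest and highest fish numbers largely follow from that choice. The counts below are a description. In 9 of the 10 that rose, fish 82, 89 and 95 were all among the 4 highest values, and in 8 of the 9 that fell they were all among the 4 lowest. In 7 of the 9 that fell, fish 41, 43, 47 and 48 were all among the 5 highest. Fish 82, 89 and 95 were male, as was fish 41, whereas fish 43, 47 and 48 were female, and sex was a term of the fit. Fish 41, 43, 47, 48 and 82 came from home tank 1, fish 57, 63, 64 and 89 from tank 3, and fish 77, 79 and 95 from tank 5, and the values within these tanks follow for the 2 genes with the smallest p, as a description. Within tank 1, nr1d2 stood at 7.00 log2 CPM in fish 82, against 8.08 to 8.30 in fish 41, 43, 47 and 48. Within tank 3 it stood at 6.86 in fish 89, against 7.57 to 7.70 in fish 57, 63 and 64, and within tank 5 at 6.63 in fish 95, against 7.41 in fish 77 and 6.89 in fish 79. Nfil3-5 was at 7.42 in fish 82, against 5.61 to 6.18 in the other tank 1 fish, at 8.08 in fish 89, against 6.45 to 7.17 in the other tank 3 fish, and at 8.05 in fish 95, against 6.96 in fish 77 and 7.17 in fish 79. The genes were chosen for their trend, and tanks 2 and 4 held only consecutive numbers, so these values are no test of home tank.

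Home tank rose with fish number up to fish 79, so a slope beside a home tank term leans mostly on fish 82, 89 and 95. With this term, 10 of the 19 clock genes passed and 9 did not. The 10 were nr1d2 (slope -0.30, adjusted p = 0.00444), per3 (-0.42, 0.00444), nfil3-5 (0.49, 0.00444), bmal1 (ENSDARG00000006791, 0.19, 0.0052), tefa (-0.23, 0.0172), nr1d4b (0.45, 0.0172), bmal2 (0.30, 0.0322), rorcb (0.50, 0.0322), bhlhe41 (-0.21, 0.0368) and nfil3 (0.24, 0.0436). Under every alternative run for the trend, 9 genes were called: per3, bmal1 (ENSDARG00000006791), bmal2, bhlhe41, nr1d2, rorcb, tefa, nfil3-5 and impdh1 (ENSDARG00000029524), an enzyme of guanine nucleotide synthesis. The last of these is in no list. It ran from 5.63 to 6.39 log2 CPM (median 5.97) in fish 63 to 95, against 5.29 to 5.78 (median 5.59) in fish 41 to 57, and rose with a slope of 0.18 (SE 0.020, adjusted p = 7.23e-05).

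**Figure D3:**
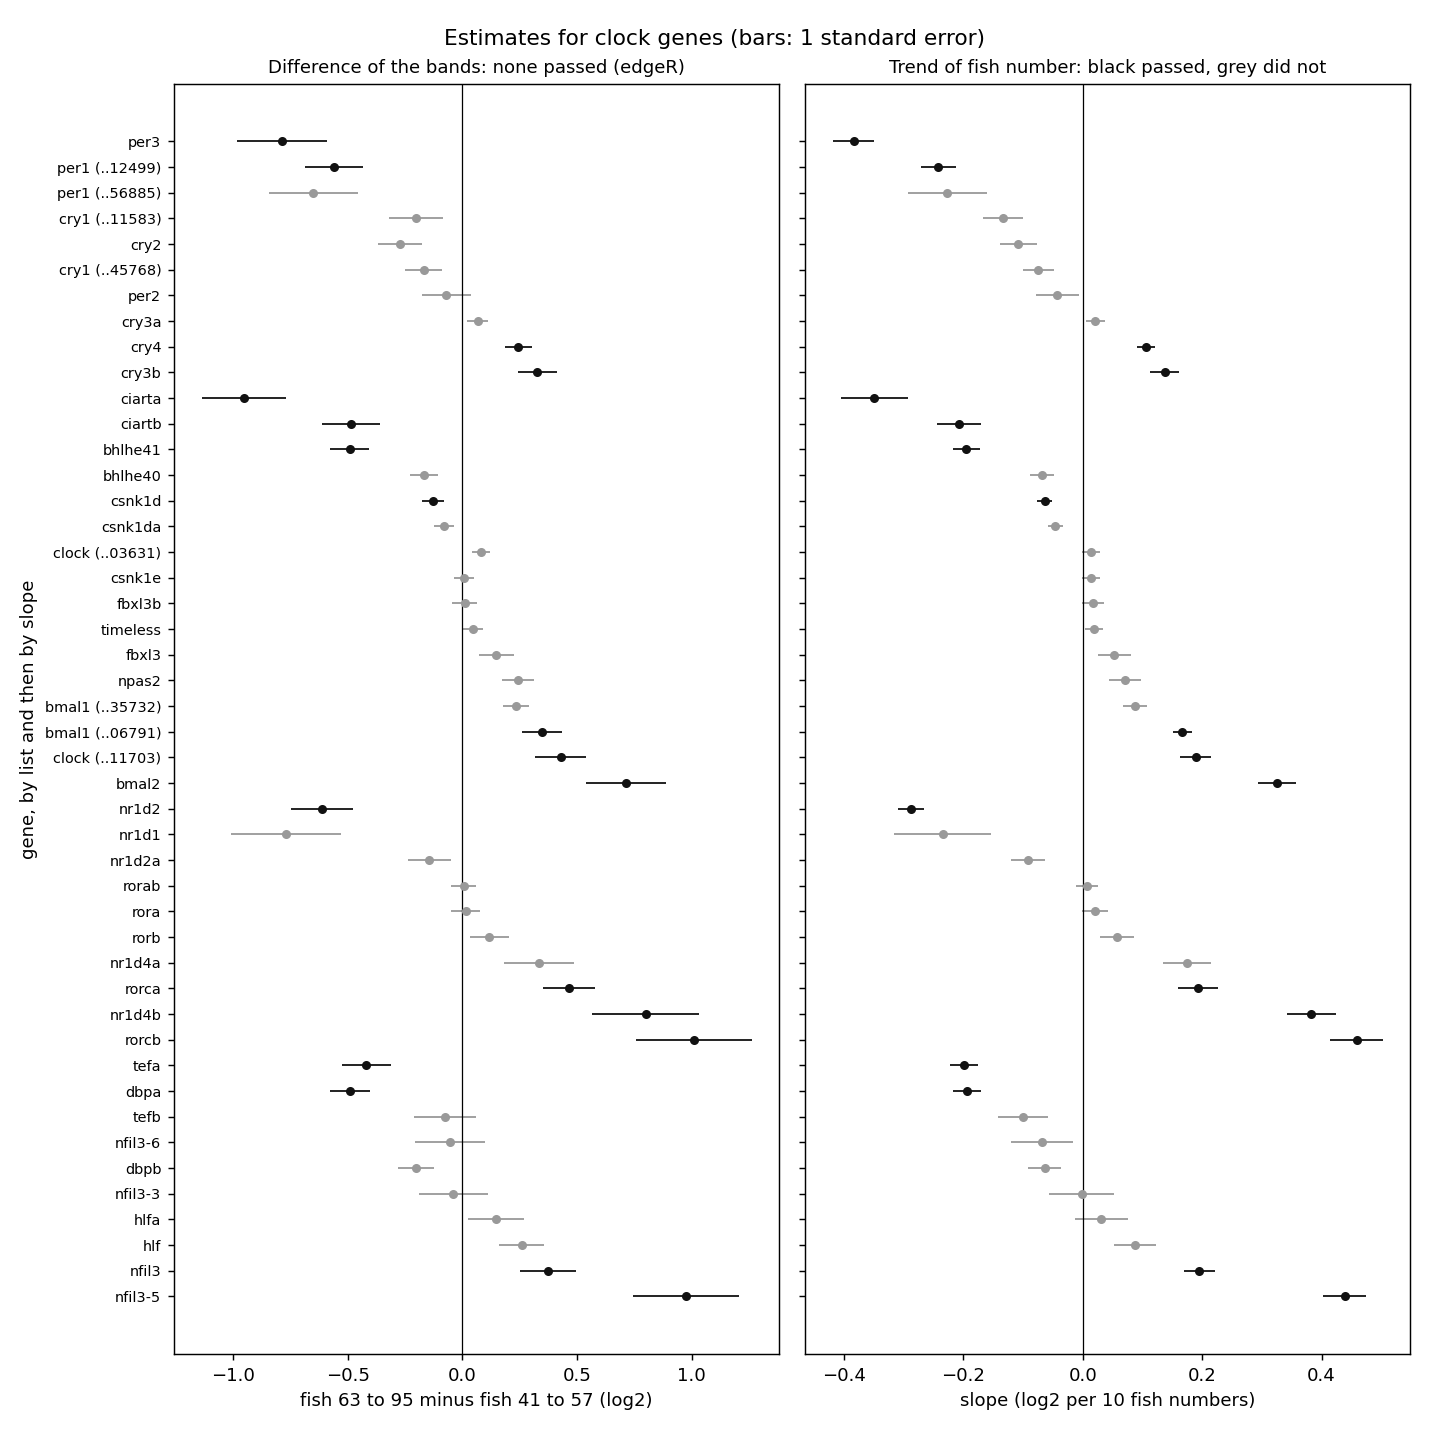
Difference of fish 63 to 95 minus fish 41 to 57 (left) and slope per 10 fish numbers (right), both on the log2 scale with bars of 1 standard error, for 46 clock genes ordered as in the map of levels; black points are the 19 genes whose slope passed and grey points the others. None of the differences of the bands passed by edgeR, and in both panels per3 and ciarta lie at the left end and nfil3-5 and rorcb at the right end.

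Of the 61 trend calls, 30 were in at least 1 of 38 lists and 31 in none. The calls named in this paragraph were chosen after their values were seen. Of 16 photolyase and light-induced DNA repair genes, 4 were called (25%, against 0.319% of all genes), all falling. Cry5, the 6-4 photolyase of zebrafish, ran from 1.38 to 2.76 log2 CPM (median 2.13) in fish 63 to 95, against 2.29 to 3.17 (median 2.78) in fish 41 to 57, and fell with a slope of -0.28 (SE 0.037, adjusted p = 0.000471). The cyclobutane pyrimidine dimer photolyase gene cpdp fell with -0.15 (SE 0.023, adjusted p = 0.00169), ddb2, a sensor of ultraviolet damage, with -0.24 (SE 0.043, adjusted p = 0.0116), and cry-dash with -0.29 (SE 0.053, adjusted p = 0.0148). With a home tank term these 4 had adjusted p between 0.257 and 0.592 and did not pass.

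Of 41 heat shock factors and chaperones, 3 were called (7.32%, against 0.319% of all genes), all falling. Hsf2 ran from 4.33 to 4.95 log2 CPM (median 4.69) in fish 63 to 95, against 4.88 to 5.70 (median 5.33) in fish 41 to 57, and fell with a slope of -0.25 (SE 0.033, adjusted p = 0.000433). Hspe1 and hspd1, which encode the mitochondrial chaperonin pair Hsp10 and Hsp60, fell with -0.10 (SE 0.016, adjusted p = 0.00427) and -0.088 (SE 0.018, adjusted p = 0.0276). None of the 3 passed with a home tank term (adjusted p = 0.105 for hsf2, 0.209 for hspe1 and 0.269 for hspd1). Cipcb, a repressor of Clock, fell with -0.11 (SE 0.018, adjusted p = 0.00719). Calls in other lists were fus, an RNA-binding protein of the FET family, which rose with 0.12 (SE 0.020, adjusted p = 0.0103), acsl1, which activates long-chain fatty acids and rose with 0.084 (SE 0.014, adjusted p = 0.00639), and hmox2, a haem oxygenase, which fell with -0.091 (SE 0.019, adjusted p = 0.0461). With a home tank term cipcb, fus, acsl1 and hmox2 did not pass, with adjusted p of 0.406, 0.628, 0.0584 and 0.669, and hmox2 was called in 3 of the 20 fits that left out 1 fish.

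Outside the lists, fbxl3l, an F-box gene, ran from 0.89 to 3.63 log2 CPM (median 2.27) in fish 63 to 95, against 0.81 to 1.74 (median 1.19) in fish 41 to 57. It rose with a slope of 0.53 (SE 0.061, adjusted p = 9.42e-05), a fitted 7.29-fold rise, and fish 79, 82, 89 and 95 held the 4 highest values. Opn3, an opsin of brain tissue, rose with 0.20 (SE 0.034, adjusted p = 0.00854). Sdhaf2, an assembly factor of succinate dehydrogenase, fell with -0.088 (SE 0.016, adjusted p = 0.00966), and amd1, an enzyme of polyamine synthesis, fell with -0.12 (SE 0.023, adjusted p = 0.0271). With a home tank term opn3, sdhaf2 and amd1 did not pass (adjusted p = 0.318, 0.429 and 0.477), and fbxl3l did (0.0436) but not without fish 82, 89 and 95 (0.117).

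Called genes described above also made up the calls of 2 further lists. The glucocorticoid response and stress axis list had 1 call among 25 genes (4%, against 0.319% of all genes), per1 (ENSDARG00000012499). The clock output list had 3 among 19 (15.8%), rorcb, hsf2 and cipcb. The remaining lists gave no called slope, among them immediate early genes (40 tested), unfolded protein response (34), hypothalamic neuropeptides (37), lysosome (71), autophagy (52), interferon response (29), synaptic vesicle release (40), myelin (26), and melatonin synthesis and pineal genes (15). Some still leaned one way. Slopes were negative in 25 of 30 cholesterol synthesis genes (83.3%, median -0.092), against 49.9% of all genes, and in 27 of 30 without fish 89. In bulk tissue, fewer cells of a type and less RNA per cell cannot be told apart.

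Slopes were negative in 37 of 41 microglia and macrophage genes (median -0.07) and in 30 of 39 astroglia and radial glia genes (median -0.047), none of them called. Fish 89 moved with these values. The summed level of the microglia list was 612.3 CPM in fish 89, against 1129 to 2368 in the other 9 fish 63 to 95 and 1067 to 1947 in fish 41 to 57. The astroglia list summed to 6447 CPM in fish 89, against 10260 to 15060 in the other fish 63 to 95 and 10520 to 15800 in fish 41 to 57. Its brain endothelium and mural list stood at 435.8 CPM, against 803.7 to 1222 in the other fish 63 to 95 and 745.5 to 1178 in fish 41 to 57. Without fish 89 the microglia slopes were negative in 15 of 41 genes (median 0.018) and the astroglia slopes in 20 of 39 (median -0.004). Without fish 82, 89 and 95 the microglia slopes were negative in 6 of 42 genes (median 0.14). The astroglia slopes were then negative in 18 of 39 (median 0.009), against 48.1% of all genes. Of the 19 clock calls, 16 remained without fish 89, and nr1d2 (-0.29, adjusted p = 1.12e-05), per3 (-0.37, 0.000178) and nfil3-5 (0.42, 8.65e-05) were among them.

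**Figure D4:**
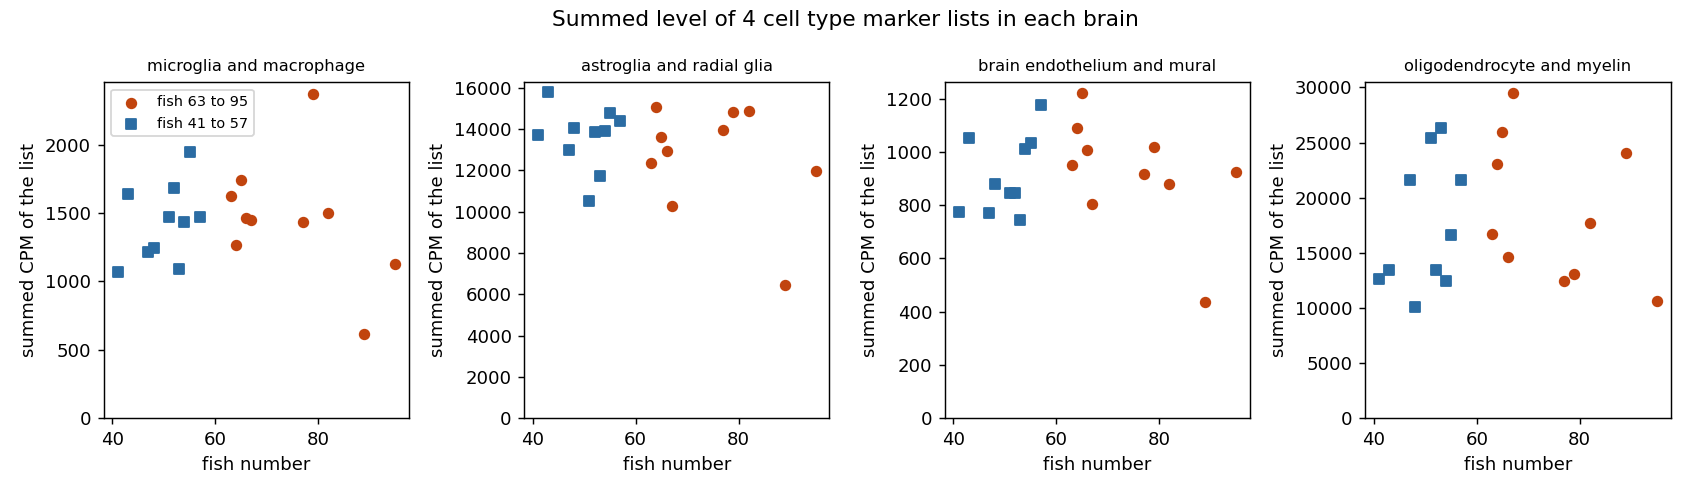
Summed CPM of 4 cell type marker lists (vertical axes, from 0) in single brains against fish number (horizontal axes), with fish 63 to 95 as circles and fish 41 to 57 as squares. Fish 89 is lowest for the microglia, astroglia and endothelium lists, at 612.3, 6447 and 435.8 CPM, and the rest of the bands overlap.

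Fish number was also fitted beside the band, so that the slope rests on differences of fish number inside the bands. Of 19093 genes, 20 were called (0.105%), 10 with positive and 10 with negative slopes, and 9 of them were in the clock lists. Nr1d2 had a within-band slope of -0.33 (SE 0.037, adjusted p = 0.00104), nfil3-5 of 0.50 (SE 0.062, adjusted p = 0.0018), bmal1 (ENSDARG00000006791) of 0.20 (SE 0.026, adjusted p = 0.0018), nr1d4b of 0.50 (SE 0.065, adjusted p = 0.0018), per3 of -0.46 (SE 0.059, adjusted p = 0.0018) and bmal2 of 0.38 (SE 0.054, adjusted p = 0.00388). These slopes rest on the same 20 fish as the trend above. Without fish 82, 89 and 95 the count was 0 (1575 genes with an unadjusted p under 0.05), without fish 95 it was 7, without fish 89 it was 10, without fish 43 it was 12, without fish 53 it was 13, without fish 57 it was 60, and with a home tank term it was 0 (1537 unadjusted). DESeq2 called 150 with all 20 fish.

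Each band was also fitted alone, a choice made after seeing the data. In fish 63 to 95 edgeR called 0 of 17655 genes (0%), with 3017 at an unadjusted p under 0.05, and in fish 41 to 57 it called 0 of 17649 (0%), with 1703. The slope of nr1d2 was -0.31 (SE 0.046) in fish 63 to 95 and -0.42 (SE 0.066) in fish 41 to 57, that of per3 was -0.44 (SE 0.060) and -0.60 (SE 0.133) in the same order, and that of nfil3-5 was 0.51 (SE 0.081) and 0.59 (SE 0.125). Nr1d1 and per2, which passed in neither band, had estimates of opposite sign in the bands, a difference that edgeR did not call. The slope of nr1d1 was 0.12 (SE 0.082, adjusted p = 0.488) in fish 63 to 95 and -1.05 (SE 0.208, adjusted p = 0.251) in fish 41 to 57, and that of per2 was 0.034 (SE 0.027, adjusted p = 0.545) and -0.52 (SE 0.113, adjusted p = 0.267). The difference of the slopes was 1.15 for nr1d1 (SE 0.222, edgeR adjusted p = 0.139) and 0.53 for per2 (SE 0.102, adjusted p = 0.139). EdgeR called this difference in 0 of 19093 genes (0%), with 2558 at an unadjusted p under 0.05, while DESeq2 called it in 90, nr1d1 (adjusted p = 0.00085) and per2 (adjusted p = 0.00192) among them.

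The band difference was not shown to depend on sex, genotype or treatment. EdgeR called 0 genes for band by sex (378 at an unadjusted p under 0.05), 0 for band by genotype (1153) and 0 for band by treatment (474). DESeq2 called 0 for sex, 27 for genotype, all of them negative, and 0 for treatment. Among the genes with the smallest p for band by genotype were unc80, a subunit of a sodium leak channel complex (-0.48, SE 0.072, adjusted p = 0.0666), fat3 (ENSDARG00000087709), nsd3 and kazn (ENSDARG00000006601), with adjusted p up to 0.171, and none passed. For band by sex the 5 genes with the smallest p were otx2a, rfng, myo15b, mrps2 and npffl, and for band by treatment si:dkey-165b20.2, slc22a8, ENSDARG00000100132, si:dkey-235h8.1 and gnrh2, all with an adjusted p that rounds to 1.

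The 20 fish numbered 2 to 40 served as a comparison, with no fish in common. In fish 41 to 95 genotype by treatment groups were equal between the bands. The heterozygous iron fish there were only numbers 47, 51, 63 and 64. With genotype by treatment groups as terms, edgeR called 56 trend genes there, 18 of them clock genes, and 10 within-band slopes. In fish 2 to 40 the groups were unequal between fish 2 to 22 and fish 23 to 40. The homozygous iron fish were numbers 5, 14, 15 and 21, and the heterozygous iron fish numbers 22, 23, 31, 32, 39 and 40. Genotype and treatment were separate terms, so a joint effect of both cannot be told apart from fish number there. This limit holds for every comparison with fish 2 to 40. The main slopes in fish 41 to 95 were fitted with the same separate terms. EdgeR called a trend of fish number in 12 of 18632 genes in fish 2 to 40 (0.0644%). Of the 19 clock genes called in fish 41 to 95, 17 had the same sign of slope in fish 2 to 40 (89.5%). Among these 19, 2 were called there. Of all 46 clock list members, called or not, 39 had the same sign (84.8%). Of the other 42 calls 24 had the same sign, against 49% of all 18592 genes fitted in both. Ciarta had a slope of -0.35 (SE 0.056) in fish 41 to 95 and -0.44 (SE 0.054, adjusted p = 0.0019) in fish 2 to 40, and bhlhe41 of -0.20 (SE 0.022) and -0.18 (SE 0.032, adjusted p = 0.0378). Another 5 clock genes did not pass in fish 41 to 95 but were called in fish 2 to 40: nr1d1 (-0.40, SE 0.051), cry1 (ENSDARG00000011583, -0.29, SE 0.045), cry2 (-0.23, SE 0.032), per1 (ENSDARG00000056885, -0.38, SE 0.060) and cry3a (0.18, SE 0.033). By the test of the difference itself, none of these 5 passed between the sets of fish, with adjusted p from 0.0507 (cry3a) to 0.621.

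The slope in fish 41 to 95 minus that in fish 2 to 40, tested after seeing the data, was called in 11 of 19668 genes (0.0559%), 5 positive and 6 negative. Nr1d2 had a slope of -0.29 (SE 0.022) in fish 41 to 95 and of -0.033 (SE 0.030) in fish 2 to 40, and its difference was -0.26 (SE 0.037, adjusted p = 0.000753). Nr1d4b had slopes of 0.38 (SE 0.041) and -0.06 (SE 0.073) in the same order, with a difference of 0.43 (SE 0.078, adjusted p = 0.00827), and fbxl3l of 0.53 (SE 0.061) and 0.026 (SE 0.074), with a difference of 0.50 (SE 0.099, adjusted p = 0.0247). Hspe1 had slopes of -0.10 (SE 0.016) and 0.087 (SE 0.032), with a difference of -0.20 (SE 0.034, adjusted p = 0.00827), and cpdp of -0.15 (SE 0.023) and 0.055 (SE 0.031), with a difference of -0.21 (SE 0.037, adjusted p = 0.00827). The others were rnls, rapgef6, sdhaf3, tmem98, akap9 and mrpl38, none of which had a called slope in fish 41 to 95. The difference of the bands in fish 41 to 95 minus that of fish 23 to 40 over fish 2 to 22 was called in 0 of 19668 genes by edgeR (1861 at an unadjusted p under 0.05, smallest adjusted p 0.112) and in 39 by DESeq2.

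**Figure D5:**
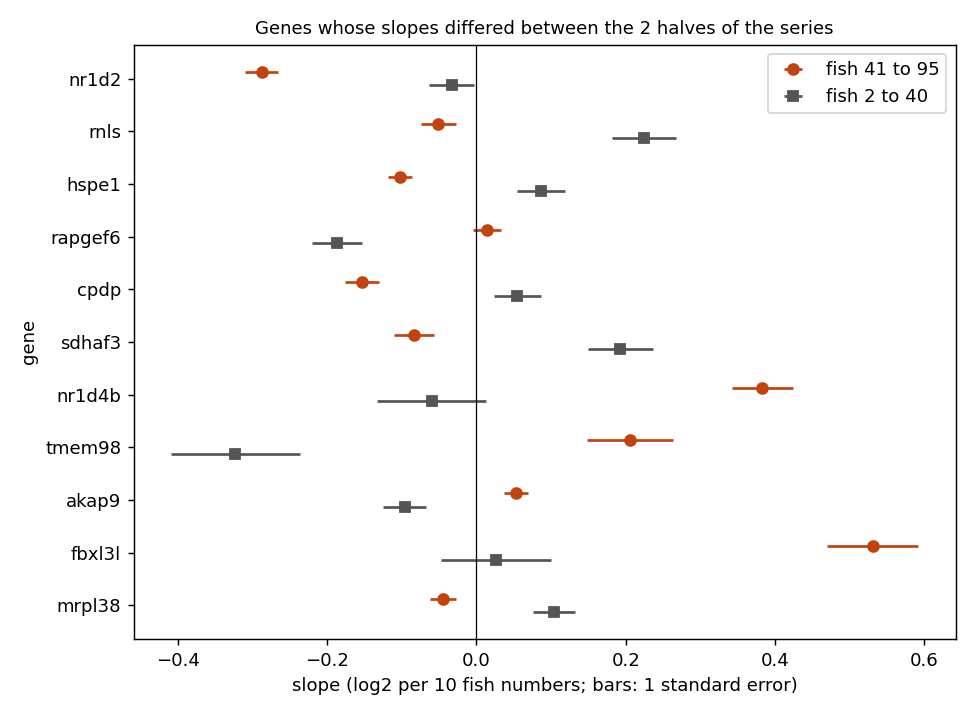
Slope per 10 fish numbers on the log2 scale, with bars of 1 standard error, in fish 41 to 95 (circles) and in fish 2 to 40 (squares) for the 11 genes whose slopes differed between them. Nr1d2 lies at -0.29 in fish 41 to 95 and near 0 in fish 2 to 40, and nr1d4b and fbxl3l lie at 0.38 and 0.53 in fish 41 to 95 and near 0 in fish 2 to 40.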

How the data were processed

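The authors deposited 1 table of whole-number counts per Ensembl gene (32057 genes, 40 libraries), of which 20 were the subject here. The submitters' processing notes name fastp, STAR, UMI-tools, featureCounts and the build GRCz11, with no settings or versions, which were not given in the sources used here. A reference table paired 90.4% of the gene identifiers with a symbol. Counts were tested as deposited with edgeR 4.0.16 in R 4.3.3: TMM factors, filterByExpr by band, a robust quasi-likelihood fit with genotype, treatment and sex as terms, and Benjamini-Hochberg adjustment over every gene in the fit (threshold 0.05). The SE of a log2 estimate is its size divided by the square root of F. Levels are log2 CPM with TMM factors and a prior count of 2, comparable between fish but not between genes. Summed marker lists are CPM of the library total without these factors. The model fit was first tested on simulated data. For the bands it recovered 34% of 1.25-fold, 78% of 1.5-fold and 92% of 2-fold changes. For the trend, with the fold taken from fish 41 to fish 95, it recovered 2%, 38% and 68%. Each test also called 9 unchanged genes. Alternatives used DESeq2 1.42.0 without its own filter, limma 3.58.1 voom, other factors, filters and terms, and fewer fish. The members, the 38 gene lists and the tests were chosen with earlier results of these data known. Named were naglu, every clock list member, up to 6 called genes per test by smallest p, and, where none was called, the 5 with the smallest p; other names were chosen after their values were seen. One gene that the rule names is not reported here. No 2 of the 20 libraries agreed within counting noise (smallest chi-square per degree of freedom 8.88). Each library carries its own fish number, and p-values measure the spread between these fish. No replicate numbers are shared by the bands.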

Additional observations from a re-analysis of the deposited data

Results flagged for a closer look

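Among 226 groups of 10 fish (1 gene in 1 band each), 12 held 1 fish far from the other 9 by Dixon's criterion, where chance marks about 1 group in 20. In fish 63 to 95, fish 63 was high for cry2 (5.67 log2 CPM, next 5.37) and cry3a (7.65, next 7.49), fish 89 was high for rora (7.69, next 7.34) and low for spred1 (6.97, next 7.28), and fish 65 was low for dbpb (5.23, next 5.45). In fish 41 to 57, fish 57 was low for tefb (6.39, next 7.24) and hlfa (5.62, next 6.51), fish 53 was high for cry4 (5.30, next 5.11), fish 52 was low for bmal1 (ENSDARG00000035732, 4.1, next 4.36), fish 48 was low for arhgef19 (0.79, next 1.49) and high for unc80 (6.18, next 6.07), and fish 51 was low for npffl (-1.74, next 0.44).

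Summed marker lists were examined in the same way in 18 groups. In fish 63 to 95, fish 89 was low for brain endothelium and mural genes (435.8 CPM, next 803.7) and for choroid plexus, ependyma and meninges (189.5, next 275.9), and fish 67 was high for skeletal muscle (195.8, next 77.49). In fish 41 to 57, fish 43 was high for skeletal muscle (119.1, next 73.55) and fish 57 for blood (926.5, next 397.8).

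Slopes of 11 genes differed between fish 41 to 95 and fish 2 to 40 by the test of the difference. The difference per 10 fish numbers was -0.257 for nr1d2, -0.27 for rnls, -0.195 for hspe1, 0.201 for rapgef6, -0.208 for cpdp, -0.268 for sdhaf3, 0.425 for nr1d4b, 0.544 for tmem98, 0.153 for akap9, 0.499 for fbxl3l and -0.151 for mrpl38, with edgeR adjusted p between 0.000753 and 0.04.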

How the results depend on the processing

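The difference of the bands was called in 0 genes under every alternative run except DESeq2 (17 genes, 7 of the 49 named and 6 clock genes) and a fit with no covariates (2 genes, bhlhe41 and dbpa, both clock genes and both named). Leaving out each fish in turn left 0 in all 3 counts. The trend was called in 61 genes, and in 132 with DESeq2, 14 with a home tank term, 32 without fish 41, 38 without fish 95, 22 without fish 41 and 89, 30 without fish 82, 89 and 95, and 13 in male fish only, which leaves fewer fish. Clock calls were 19 of 46, against 10 with a home tank term, 11 without fish 82, 89 and 95 and 11 in male fish only. Without each fish in turn the trend count ran from 32 (without fish 41) to 64 and the clock count from 15 to 20. The within-band count of 20 became 150 with DESeq2, 10 with genotype by treatment groups, 0 with a home tank term, 10 without fish 89, 7 without fish 41 and 89, 0 without fish 82, 89 and 95 and 10 with ranks of fish number, 3 of which were among the 20. Left-out fish gave it a range of 7 (without fish 95) to 60 (without fish 57). DESeq2 called 27 genes for band by genotype and 39 for the contrast of bands with fish 2 to 40, where edgeR called 0, and 82 slope differences, which were 11 in edgeR and 17 with no filter. The causes of these moves were not tested. No called gene changed sign under any alternative. For both trends, voom, upper quartile factors, the CPM filter, genotype by treatment groups, no covariates, male fish only and each single fish left out were chosen after seeing the data, as were the count of clock calls and the slope differences. No paired analysis was possible because the bands share no fish number. The 13101544 counts of fish 77 set the lowest depth.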

Other observations

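Socs3, pdk2 and bdh1 passed in the within-band fit but not in the trend over all 20 fish. Socs3 (ENSDARG00000025428), an inhibitor of cytokine signalling, stood at 1.53 log2 CPM in fish 89 and 2.67 in fish 95, against 3.87 to 4.89 in the other fish 63 to 95 and 3.21 to 4.59 in fish 41 to 57, and its within-band slope was -0.74 (SE 0.116, edgeR adjusted p = 0.0136). Pdk2 (ENSDARG00000059054), a kinase that restrains pyruvate dehydrogenase, ran from 0.80 in fish 89 to 3.56 in fish 63, and from 0.47 to 2.66 in fish 41 to 57, with a within-band slope of -0.52 (SE 0.091, adjusted p = 0.0306). Bdh1, an enzyme of ketone body metabolism, had a within-band slope of -0.12 (SE 0.022, adjusted p = 0.0337). These 3 genes were chosen after their values were seen.

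Interferon response genes had no called slope in any of 3 sets of fish, but their signs depended on the set. Slopes were positive in 14 of 29 genes with all 20 fish (median -0.005) and in 23 of 30 without fish 89 (median 0.067). Without fish 82, 89 and 95 they were positive in 31 of 31 (median 0.311), against 10031 of 19326 over all genes. Other lists moved as well without these fish. Microglia and macrophage slopes were then positive in 36 of 42 genes, against 4 of 41 with all 20 fish. Brain endothelium and mural slopes were positive in 36 of 41, against 15 of 41. Synaptic vesicle release slopes were negative in 36 of 40, against 23 of 40.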
